A study of Mus musculus with 14 samples.

Results

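Cytosolic ribosomal protein genes were examined for transcription factor binding at their promoters while mouse embryonic stem (ES) cells formed blood. The members were picked out by gene symbol from the RefSeq annotation of GRCm38. The set took every coding gene whose symbol begins with Rpl or Rps followed by a number, together with Rpsa, Rplp0, Rplp1 and Rplp2, and left out 15 coding genes with similar symbols, such as the Rps6 kinases and retained pseudogene models. This gave 86 genes of 21774 coding genes. Of these, 43 encode proteins of the large (60S) subunit, 3 encode the P stalk of that subunit, 31 encode proteins of the small (40S) subunit, and 9 are paralogues or retrocopies of the others (Rpl3l, Rpl10l, Rpl22l1, Rpl32l, Rpl36al, Rpl37rt, Rpl39l, Rps23rg1 and Rps27l).

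Binding had been mapped by ChIP-seq, the sequencing of DNA immunoprecipitated with an antibody to a factor, in cells derived from an ES cell line of strain 129 that carries a brachyury GFP reporter. Mesoderm (MES) was sorted as Bry.GFP+ and FLK1-, hemangioblasts (HB) as Bry.GFP+ and FLK1+, hemogenic endothelium (HE) as Tie2+, cKit+ and CD41-, and hematopoietic progenitors (HP) as CD41+. Macrophages (MAC) were CD11b+ cells grown from CD41+ cells. Antibodies to C/EBPβ were used at all 5 stages, to ELK4 in MES, to GATA2 in HB and HP, to GATA1 and GFI1B in HP, and to RUNX1 and PU.1 (encoded by Spi1) in HP and MAC. All populations came from 1 reporter line, and each combination of factor and stage was 1 peak list, so the 14 lists had no replicates and no test was made. The lists hold 72 to 82866 peaks of 400 bp, 158488 in all, with no height or read depth. The threshold for a peak was set separately for each list, so a share of bound genes describes that list and not an amount of binding. Since the lists hold positions and no expression, the sorted cells could not be checked against marker genes.

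Ribosomal proteins are needed in nearly equal amounts, 1 of each per ribosome apart from the P stalk, and their genes are among the most highly transcribed in dividing cells. Their mRNAs typically begin with a run of pyrimidines (the 5′ TOP element), through which their translation is controlled by nutrient signalling. Loss of a single copy of several of these genes causes Diamond-Blackfan anaemia in people, a failure of red cell formation.

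The promoters of the genes often hold the core recognised by ETS factors, the family that includes ELK4 and PU.1. A window of 300 bases, from 250 before to 50 after the annotated start, was searched on both strands for all 86 genes and for all 21774 coding genes. The ETS core CCGGAA was found in 45 of the 86 promoters (52.3%) and in 18.8% of all coding promoters. The promoters below show how it lies near the start in 4 genes bound by PU.1. At Rpl18, 1 of the 4, the nearest PU.1 peaks in HP and MAC held no core, so its printed match lay outside them. Also shown are 2 promoters with no match in the window. They are those of Rpl10a, which was bound in 3 C/EBPβ lists, and Rps16, whose PU.1 peaks in HP and MAC held a core outside the window. Each runs 5′ to 3′ on the strand of the gene from 120 bases before to 20 after the start, read from RefSeq GRCm38, with the ETS core or its reverse complement TTCCGG in capitals. The positions are chr4:86857348-86857487 on the minus strand for Rps6, and on the plus strand chr9:44407594-44407733 for Rps25, chr15:5116493-5116632 for Rpl37, chr7:45717951-45718090 for Rpl18, chr17:28328351-28328490 for Rpl10a and chr7:28350569-28350708 for Rps16.
Rps6: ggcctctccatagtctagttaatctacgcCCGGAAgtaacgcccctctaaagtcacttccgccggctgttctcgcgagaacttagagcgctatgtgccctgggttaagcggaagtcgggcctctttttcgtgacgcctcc
Rps25: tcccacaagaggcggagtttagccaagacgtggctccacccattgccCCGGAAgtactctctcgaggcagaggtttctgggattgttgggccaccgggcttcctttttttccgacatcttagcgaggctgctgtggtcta
Rpl37: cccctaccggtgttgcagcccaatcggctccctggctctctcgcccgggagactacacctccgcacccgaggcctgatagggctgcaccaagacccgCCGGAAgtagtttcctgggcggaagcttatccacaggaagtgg
Rpl18: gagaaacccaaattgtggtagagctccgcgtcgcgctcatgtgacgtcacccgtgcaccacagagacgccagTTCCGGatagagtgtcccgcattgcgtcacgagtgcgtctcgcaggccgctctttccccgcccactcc
Rpl10a: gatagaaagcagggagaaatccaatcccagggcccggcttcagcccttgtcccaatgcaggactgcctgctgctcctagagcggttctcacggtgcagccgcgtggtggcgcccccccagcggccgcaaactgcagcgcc
Rps16: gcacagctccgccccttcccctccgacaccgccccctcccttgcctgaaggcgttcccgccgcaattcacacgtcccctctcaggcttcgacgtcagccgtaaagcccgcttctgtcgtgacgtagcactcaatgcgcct

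The 86 promoters held 67 matches, with a median position of -40 bases (quartiles -116 and -3.5), and 34 of the 67 began within the last 100 bases before the start. Restricting the search to the 150 bases from 100 before to 50 after the start gave 36 of 86 genes (41.9%), against 13.7% of all coding genes. Of the 45 promoters with a core, 36 (80%) had one in that stretch, as did 2979 of the 4104 coding promoters with a core (72.6%). The longer ELK4 consensus CCGGAAGT, which contains the core and so counts some of the same matches, was in 17 promoters (19.8%) against 5.29% of all. Base composition was alike, with a median GC content of 57% (quartiles 52.4 and 61.3) in the ribosomal protein promoters and 56.3% (48 and 64.6) in all.

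The letters preferred by the other immunoprecipitated factors had shares nearer to those of all coding promoters. GAGGAAGT, the consensus of PU.1, which has no CpG, was in 3 promoters (3.49%, in Rpl13a, Rpl35 and Rpl36a) against 2.98% of all coding promoters. The RUNX consensus TGTGGTT was in 2 (2.33%, in Rps2 and Rps3a1) against 4.85%. TTGCNNAA, for C/EBP, was in 7 (8.14%) against 10.1%, AGATAAG, for GATA, in 3 (3.49%) against 2.52%, and AATCNNNGC, for GFI1B, in 11 (12.8%) against 11.2%.

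Sequences common to many promoters were also counted. A run of at least 8 pyrimidines on the coding strand within 25 bases of the start was in 49 of 86 promoters (57%) against 23.8% of all. Such a run may lie before the start and need not begin at the first transcribed base, so it is not a count of TOP elements. The annotated start may lie some bases from the true one, so this share counts annotations. The cyclic AMP response element TGACGTCA was in 6 (6.98%) against 2.45%, and the YY1 core AAGATGGC in 5 (5.81%) against 3.21%. The GC box GGGCGG was in 49 (57%) against 46.9%, while CCAAT was in 28 (32.6%) against 38.7%, TATAAA in 11 (12.8%) against 13.1%, the E-box CACGTG in 7 (8.14%) against 7.95%, and the NRF1 motif in 9 (10.5%) against 8.72%. A match describes the letters only and is not evidence of a bound factor.

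**Figure D1:**
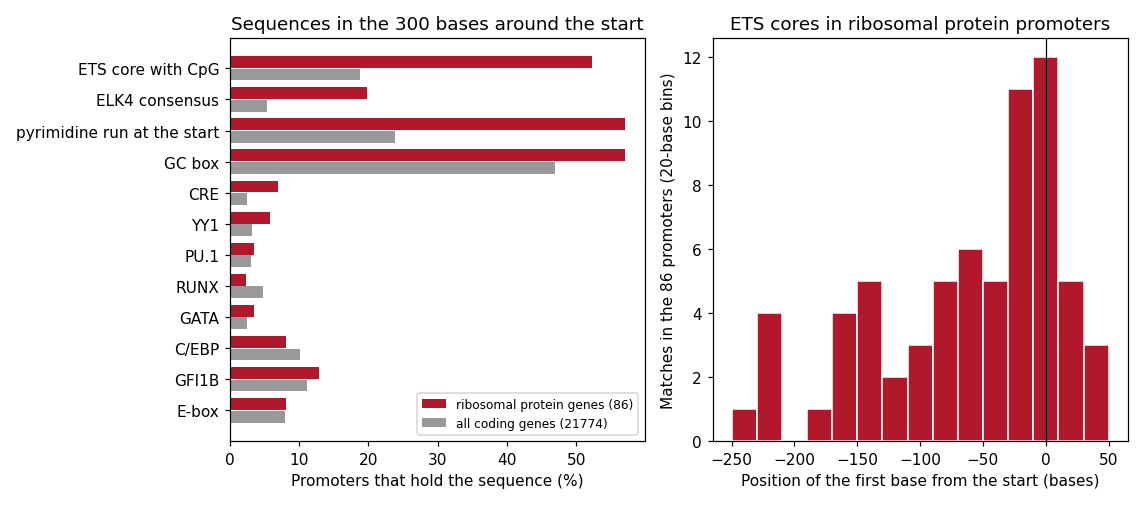
Left, the percent of promoters (300 bases around the annotated start) that hold each sequence, in the 86 ribosomal protein genes (red) and all 21774 coding genes (grey). Right, the number of ETS cores in the 86 promoters by position of the first base relative to the start, in bins of 20 bases. The ETS core was in 52.3% of ribosomal protein promoters against 18.8% of all, and 34 of the 67 matches began within the last 100 bases before the start.

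A list counted as binding a gene when it had a peak centre no more than 2 kb from the transcription start site (TSS) of any coding transcript of that gene. By this rule 78 of the 86 genes (90.7%, exact 95% interval 82.5 to 95.9) were bound in at least 1 of the 14 lists, against 59.8% of all coding genes. Intervals here and below are Clopper-Pearson intervals that cover counting error only. Most of this came from the long lists of macrophage PU.1 and C/EBPβ peaks. In the other 12 lists 30 genes (34.9%, 24.9 to 45.9) were bound at least once, against 20.9% of all coding genes. Counted over all lists, 8 genes were bound in none, 20 in 1, 38 in 2, 15 in 3, 4 in 4 and 1, Rpl18, in 5. The shares of all coding genes were 40.2% in none, 21.3% in 1, 23.5% in 2, 10.3% in 3, 3.04% in 4 and 1.2% in 5, the last close to the 1.16% of the ribosomal protein genes.

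**Figure D2:**
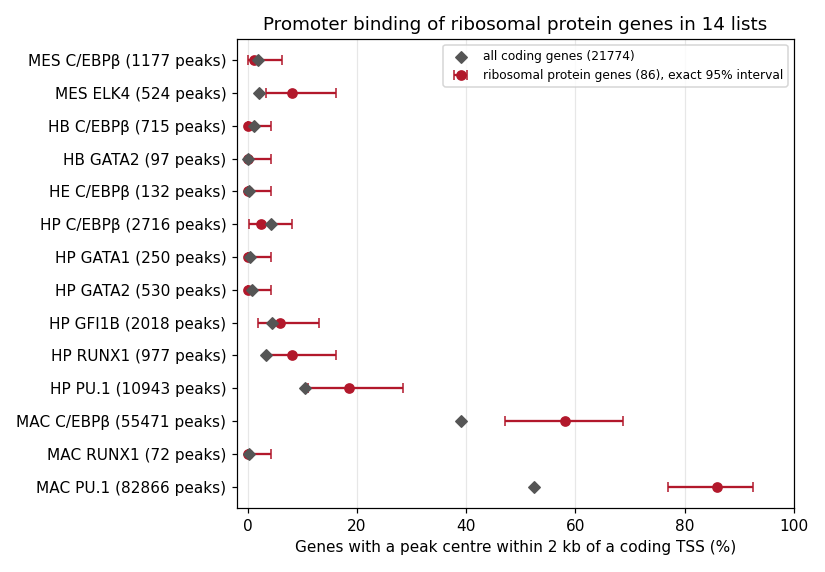
Percent of genes with a peak centre within 2 kb of a coding TSS in each of the 14 lists, for the 86 ribosomal protein genes (red circles, bars are exact 95% intervals for counting error) and for all 21774 coding genes (grey diamonds). The shares reached 58.1% in MAC C/EBPβ and 86% in MAC PU.1, against 39.1% and 52.4% of coding genes, and 6 lists bound none of the 86.

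In MAC, PU.1, the ETS factor of the myeloid lineage, was found at 74 of the 86 genes (86%, 76.9 to 92.6), against 52.4% of all coding genes. All 31 genes of the 40S subunit and all 3 of the P stalk were bound, and 38 of the 43 of the 60S subunit. Only Rpl22l1 and Rpl36al of the 9 paralogues were bound, so that without the paralogues the share was 93.5% (72 of 77). Of 19 genes linked to Diamond-Blackfan anaemia, among them Rps19, Rpl5, Rpl11 and Rps26, all 19 were bound. Among coding genes with a promoter GC content of at least 52.4%, the lower quartile of the ribosomal protein genes, 67.4% were bound. Here and below, this cut was applied to the coding genes only, so the share beside it still covers all 86 genes.

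Most of the nearest macrophage PU.1 centres lay close to the start. Their median distance from the TSS was -27.5 bp (quartiles -153 and 18.2, negative upstream). In the 11326 other bound coding genes it was -10 bp (quartiles -169 and 202). Of the 74, 51 (68.9%) lay within 200 bp, against 52.2% of those other genes. At Rps16, in the 40S head, a centre fell on the start itself (distance 0), and at Rpl30 it was -4 bp away. Of the 74 nearest centres, 37 were outside any coding gene, and 22 were in an exon of the gene outside its coding part. Another 6 were in an intron of the gene and 2 in a coding exon of the gene. The rest lay within another coding gene. The 74 genes had 108 centres in their windows, at most 4 for 1 gene, and 47 genes (63.5%) had a single centre, against 56.9% of the other bound genes.

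The 5 genes of the 60S subunit without a macrophage PU.1 peak were Rpl4, Rpl22, Rpl23a, Rpl24 and Rpl29. Their nearest centres were 5933, 24268, 5165, 7552 and -5384 bp from the TSS, in that order, so none lay just outside the window. Rpl22, Rpl23a, Rpl24 and Rpl29 were bound by C/EBPβ in MAC. Rpl4, at chr9:64173387-64178562, was the only gene outside the paralogues that was bound in no list, and its nearest MAC C/EBPβ centre, at 2025 bp, missed the window by less than the width of a peak.

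The ETS core was counted in the peaks as well. Many of these peaks, here and in the other lists, cover promoter bases already searched above. The counts in peaks and in promoters are therefore not separate observations. The core was in 42 of the 74 nearest peaks (56.8%, 44.7 to 68.2), against 21% of the 17041 promoter-proximal peaks of the list. The peaks compared were chosen differently, here and for the other lists. Each ribosomal protein gene gave only its nearest peak, while every promoter-proximal peak of the list was counted. GAGGAAGT was in 6 of 74 (8.11%, 3.03 to 16.8), against 14.7%. Among the promoters of the 86 genes, the ETS core was in 42 of 74 bound (56.8%) and in 3 of 12 not bound (25%), of which 7 are paralogues or retrocopies. The shares of bound and unbound genes were 80% (4 of 5) and 50.6% for HP GFI1B, 71.4% (5 of 7) and 50.6% for HP RUNX1, 57.1% and 51.9% for MES ELK4, 56.2% and 51.4% for HP PU.1, and 56% and 47.2% for MAC C/EBPβ.

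C/EBPβ in MAC was found at 50 of the 86 genes (58.1%, 47 to 68.7), against 39.1% of all coding genes and 50.3% of those with the higher GC content. The 50 were 25 of 43 genes of the 60S subunit, 20 of 31 of the 40S subunit, all 3 of the P stalk, and the paralogues Rpl22l1 and Rpl36al. These peaks were more spread than those of PU.1, with a median of -54.5 bp (quartiles -240 and 240). The same held for the other bound coding genes, with quartiles of -272 and 297 for C/EBPβ and -169 and 202 for PU.1. Within 200 bp lay 23 of the 50 (46%), against 42.3% of the other genes bound by C/EBPβ. A centre lay in an intron of the gene itself at 16 of the 50, against 6 of 74 for PU.1. TTGCNNAA was in 15 of the 50 peaks (30%, 17.9 to 44.6), against 35.3% of the promoter-proximal peaks of the list, and the ETS core in 18 (36%) against 18.3%. Peaks were called against inputs of the same cell population, so lists of one stage may share a control. Their values are set side by side only.

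**Figure D3:**
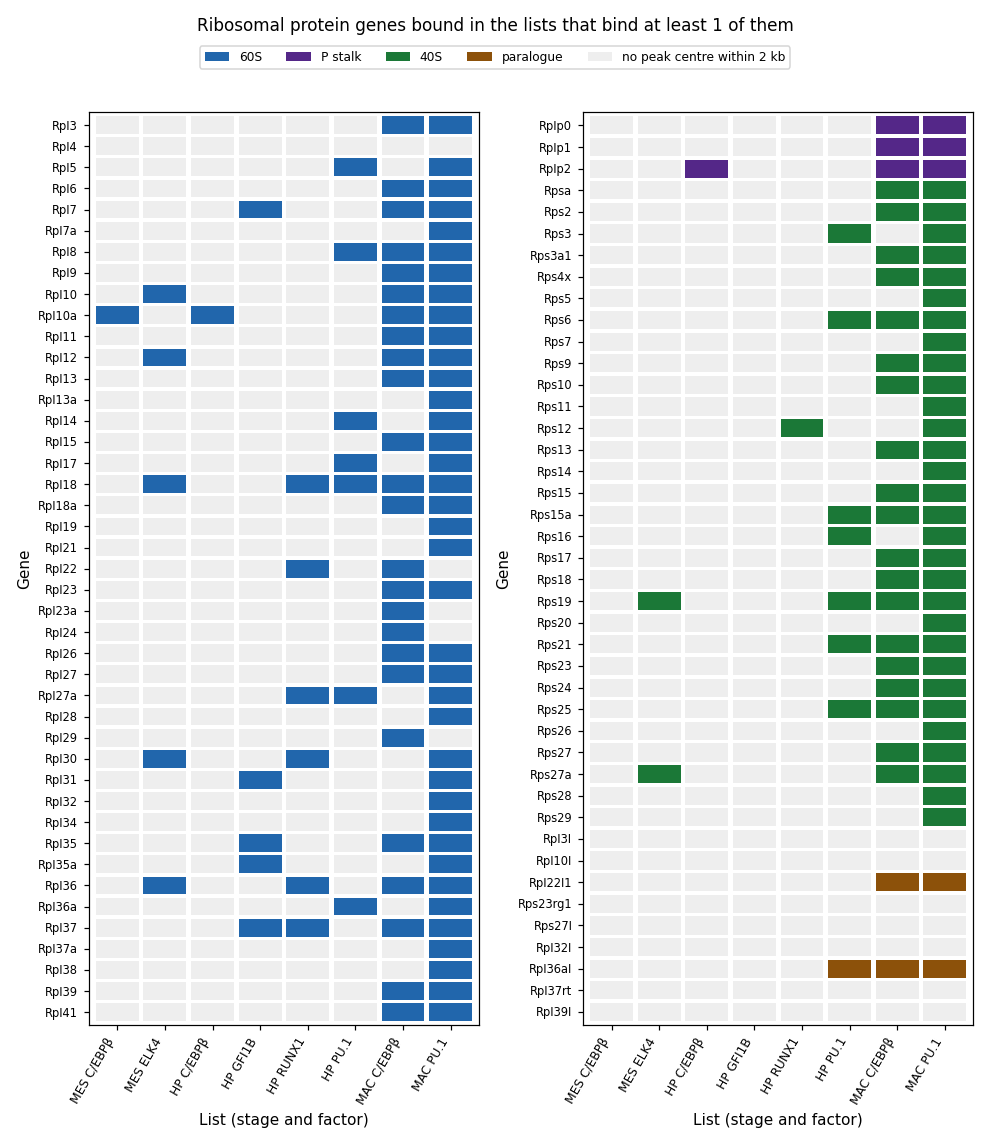
Each row is 1 of 85 of the 86 genes and each column 1 of the 8 lists that bound at least 1 of them, and a filled cell marks a peak centre within 2 kb of a coding TSS, coloured by class. The MAC PU.1 column is filled for all 30 genes of the 40S subunit that are drawn, and 7 of the 9 paralogues are empty in every column.

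In HP, PU.1 was found at 16 genes (18.6%, 11 to 28.4), against 10.5% of all coding genes and 13.6% of those with the higher GC content. They were 8 of the 40S subunit, 7 of the 60S subunit and the paralogue Rpl36al. In the 40S group, Rps6, whose product is the main phosphorylated protein of the ribosome, had a centre at -3 bp, and Rps16 at -15 bp. Rps25 and Rps15a had centres at -33 and -35 bp, and Rps3 at 52 bp. Those of Rps19, the gene most often affected in Diamond-Blackfan anaemia, and Rps21 were further upstream, at -281 and -567 bp. In the 60S group, centres lay at -13 bp for Rpl17, -161 bp for Rpl36a, -321 bp for Rpl27a, -398 bp for Rpl14 and -401 bp for Rpl18. Rpl5, whose product is part of the 5S particle that also binds the p53 regulator MDM2, had its centre at 596 bp, in an intron, and Rpl8 at 1856 bp, in a coding exon. Centres within 200 bp were found at 9 of the 16 (56.2%), against 40.4% of the other bound coding genes. This share was 3 of 5 (60%, against 41%) for GFI1B and 5 of 7 (71.4%, against 66.9%) for RUNX1 in HP, but 4 of 7 (57.1%, against 71.3%) for ELK4 in MES, 0 of 2 (against 40%) for C/EBPβ in HP and 0 of 1 (against 48.9%) for C/EBPβ in MES.

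All 16 genes were bound by PU.1 in MAC as well, 21.6% of the 74 there, and at all 16 the HP peak overlapped a MAC peak. Of all 2285 coding genes bound in HP, 99.9% were bound in MAC, so this is what nearly every gene showed. At Rps25 the centres of the 2 stages were at -33 and -36 bp, at Rpl36a at -161 and -159 bp, and at Rpl5 at 596 and 618 bp.

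The PU.1 consensus was in 2 of the 16 HP peaks (12.5%, 1.55 to 38.3), against 33.6% of the promoter-proximal peaks, and the ETS core in 8 (50%, 24.7 to 75.3), against 20.1%. The 2 PU.1 matches are shown on the plus strand with 8 bases to each side, GAGGAAGT in capitals, from the peaks at chr5:107900925-107901324 (Rpl5) and chrX:134585294-134585693 (Rpl36a).
Rpl5: taggcaggGAGGAAGTgagcgccg
Rpl36a: ctgggcggGAGGAAGTggagccga

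ELK4, an ETS factor that acts with serum response factor, was mapped only in MES, and its list held 7 of the 86 genes (8.14%, 3.34 to 16.1), against 1.94% of all coding genes and 2.46% of those with the higher GC content. At Rpl10 the peak chrX:74270405-74270804 was centred at -212 bp, at Rpl30 (chr15:34443139-34443538) at -62 bp, and at Rps19 (chr7:24883909-24884308) at -484 bp, each outside any coding gene. The other 4 peaks lay near the TSS of a neighbour. The peak at Rpl12 was centred at -125 bp, 43 bp from the TSS of Lrsam1, and that at Rps27a, which encodes ubiquitin fused to a 40S protein, at 78 bp, 12 bp from the TSS of Clhc1. At Rpl18 and Rpl36 the centres were -51 and -228 bp from the TSS of a predicted transcript but -2655 and -3529 bp from that of a curated one, and the latter was 95 bp from the TSS of Micos13. Assigning each peak to the nearest gene alone left 4 genes (4.65%, against 1.6% of all), and leaving out genes with a neighbouring coding TSS within 2 kb left 3 of 67 (4.48%, against 1.43%). The ETS core was in 4 of the 7 peaks, against 43.1% of the promoter-proximal peaks of the list, and CCGGAAGT in 0 of 7, against 13.6%.

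RUNX1, required for the formation of blood from hemogenic endothelium, was found in HP at 7 genes (8.14%, 3.34 to 16.1), against 3.34% of all coding genes and 4.78% of those with the higher GC content. Its centres were at -160 bp for Rpl27a (chr7:109518836-109519235), -49 bp for Rpl30 (chr15:34443126-34443525) and 169 bp for Rpl22 (chr4:152325696-152326095, in a coding exon). At Rps12, the 1 gene of the 40S subunit, it was at 4 bp from a predicted TSS and -170 bp from the curated one. The remaining 3 lay nearer to another gene. They were at -89 bp for Rpl18, 20 bp from Sphk2, at -215 bp for Rpl37, 164 bp from Card6, and at -359 bp from a predicted TSS of Rpl36 (-3660 bp from the curated one), 36 bp from Micos13. With nearest genes alone, 4 of 86 remained (4.65%, against 2.85%). TGTGGTT was in 1 of the 7 peaks, at Rpl22, against 15.6% of the promoter-proximal peaks, and the ETS core in 5 of 7, against 43.8%. The match is shown in capitals on the plus strand, with 8 bases to each side.
Rpl22: atggcgccTGTGGTTagtatggc

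The ELK4 list in MES and the RUNX1 list in HP, which have separate inputs, had 3 genes in common, Rpl18, Rpl30 and Rpl36, which is 42.9% of each. The corresponding shares of all coding genes were 10.7% of the ELK4 genes and 6.19% of the RUNX1 genes. Of the 3, Rpl18 and Rpl36 rested on predicted starts and shared promoters. With curated TSS alone Rpl30 was the 1 gene in common, 20% of the ELK4 genes and 16.7% of the RUNX1 genes (9.93% and 5.95% for all coding genes), and with nearest genes alone it was again Rpl30, 25% of each (8.6% and 4.83%). The peaks themselves overlapped at Rpl30 and Rpl36, and not at Rpl18. At Rpl30 the centres were -62 bp for ELK4, -49 bp for RUNX1 and -4 bp for PU.1 in MAC, and each of the 3 peaks held an ETS core. All 7 genes of the ELK4 list were in the MAC PU.1 list, as were 84.8% of all coding genes of the ELK4 list, and 6 of the 7 ELK4 peaks overlapped a MAC PU.1 peak, the exception being Rpl12.

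GFI1B, a transcriptional repressor needed in the erythroid and megakaryocytic lineages, was found in HP at 5 genes (5.81%, 1.91 to 13), against 4.47% of all coding genes and 6.09% of those with the higher GC content. All 5 encode proteins of the 60S subunit. Centres were at -180 bp for Rpl31 (chr1:39367472-39367871), -829 bp for Rpl35 (chr2:39005761-39006160), 23 bp for Rpl35a (chr16:33056338-33056737), -21 bp for Rpl37 (chr15:5116393-5116792) and -450 bp for Rpl7 (chr1:16104684-16105083). Of these, Rpl35a, Rpl37 and Rpl7 have a coding neighbour near the peak, and without genes of that kind 2 of 67 remained (2.99%, against 4% of all). AATCNNNGC was in 1 of the 5 peaks, at Rpl7, against 52.4% of the promoter-proximal peaks. It is printed here as it reads on the plus strand of chromosome 1, the match in capitals between 8 bases on each side.
Rpl7: ccttcgcgGCGGTGATTcccattag

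C/EBPβ, a basic leucine zipper factor of myeloid and stress responses, was followed through all 5 stages. It was found at 1 of the 86 genes in MES (1.16%, 0.0294 to 6.31, against 1.81% of all coding genes), 0 in HB (against 1.13%), 0 in HE (against 0.161%), 2 in HP (2.33%, 0.283 to 8.15, against 4.31%) and 50 in MAC. A count of 0 of 86 allows a share of up to 3.49% (3 counts of 86), and its exact interval reaches 4.2%. The HE list came from few cells with carrier mRNA and histone added. The peak cutoffs of the authors also differed between the C/EBPβ lists, being strictest in HE and loosest in MAC. For C/EBPβ in MES and HB, the authors saw no enrichment by quantitative PCR and sequenced the samples regardless. In all 4 lists before MAC the share of ribosomal protein genes was below that of all coding genes, with intervals that reach above it.

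The gene bound in MES was Rpl10a, a 60S protein near the exit site of tRNA, and it was bound again in HP and MAC. Its centres were at -314, -232 and -236 bp, the MES peak overlapped the HP and MAC peaks, and the same TTGCNNAA match lay in the MES peak (chr17:28327958-28328357) and the HP peak (chr17:28328040-28328439). The other gene in HP was Rplp2, of the P stalk, with a peak at chr7:141446999-141447398, -453 bp from its TSS in an intron of Pidd1, and at -470 bp in MAC. Both matches are printed as they read on the plus strand, with the consensus in capitals and 8 bases to each side.
Rpl10a: ccggaccaTTGCACAAtgcacggc
Rplp2: gacctctgTTGCCCAAgaacagga

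The P stalk genes Rplp0, Rplp1 and Rplp2 encode the acidic arm that recruits elongation factors. In MAC their C/EBPβ centres were at 651, -390 and -470 bp, and their PU.1 centres at 457, -142 and -89 bp. Rpl11, the partner of Rpl5 in the 5S particle, was bound only in MAC, at -169 bp by C/EBPβ and by PU.1 at -14 bp from a predicted TSS, which is 23 bp from the curated one, whereas Rpl5 was bound by PU.1 in HP and MAC and had no C/EBPβ centre nearer than 4060 bp. The paralogue Rpl22l1 was bound at -59 bp by C/EBPβ and -117 bp by PU.1 in MAC.

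The remaining lists bound none of the 86 genes. They were GATA2 in HB (0.0184% of all coding genes), GATA1 in HP (0.354%), GATA2 in HP (0.804%) and RUNX1 in MAC (0.115%). With backgrounds this low, both limits for a count of 0, 3.49% and 4.2%, are above the share of all coding genes in each, so a lower share could not have been detected. GATA2 in HB and RUNX1 in MAC were likewise sequenced without enrichment by quantitative PCR.

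**Figure D4:**
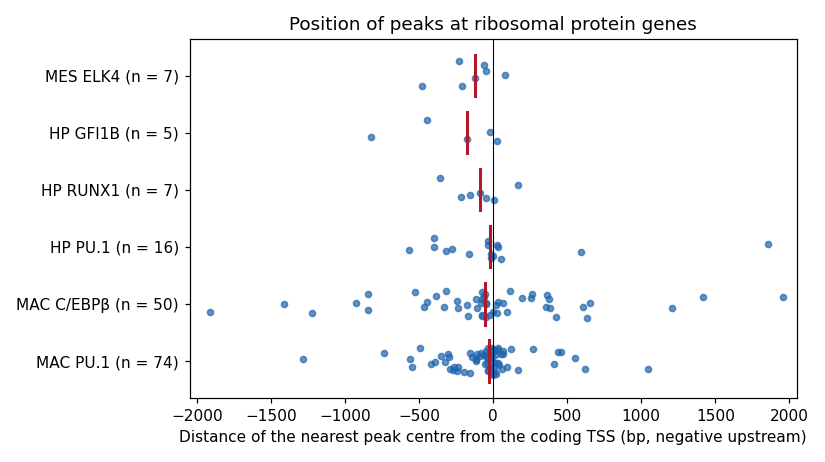
Signed distance in bp from the nearest coding TSS to the nearest peak centre (negative upstream) at the ribosomal protein genes bound in each of the 6 lists with at least 5 of them. Each point is 1 gene, vertical scatter has no meaning, and red bars are medians, which run from -180 bp for HP GFI1B to -24 bp for HP PU.1.

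The genes bound in the most lists, with ties ordered by the smaller distance, included Rpl18 in 5 lists, Rpl37, Rpl10a, Rpl36 and Rps19 in 4, and Rpl36al, Rps25, Rps6 and Rpl30 in 3. Shared promoters recur among them. Rpl18 lies 69 bp from a TSS of Sphk2, Rpl37 51 bp from Card6, and Rpl36, by its predicted start, 323 bp from Micos13. In every list that bound Rpl36 the nearest centre was placed by that predicted start. These centres lay -3529 to -3660 bp from the curated start. At Rpl18 the nearest centres of ELK4 in MES and PU.1 in MAC were also placed by a predicted start. They lay -2655 and -2589 bp from the nearest curated start. Among all 86 genes, 19 (22.1%) have another coding TSS within 2 kb, against 14% of all coding genes. Rps19 has no such neighbour, and its centres were at -484 bp for ELK4 in MES, -281 bp for PU.1 in HP, -527 bp for C/EBPβ in MAC and -262 bp for PU.1 in MAC, all upstream. Rpl37 was bound at -21 bp by GFI1B and -215 bp by RUNX1 in HP, and at -116 bp by C/EBPβ and 10 bp by PU.1 in MAC. At Rps6 the PU.1 centres were at -3 bp in HP and -41 bp in MAC, and the C/EBPβ centre in MAC was at 111 bp, in an intron.

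The genes bound in no list were Rpl4 and 7 paralogues or retrocopies, Rpl3l, Rpl10l, Rpl32l, Rpl37rt, Rpl39l, Rps23rg1 and Rps27l. Rpl3l encodes the form of Rpl3 used in striated muscle, and Rpl10l and Rpl39l encode forms used in the male germ line. The nearest macrophage PU.1 centre was at 2757 bp at Rpl3l, and at -423150 bp at Rpl10l. Only reads with a unique position were kept by the authors, and many processed pseudogenes resemble these genes. Mappability was not tested.

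Other sets of widely expressed genes give the context for these shares. In the MAC PU.1 list, 61 of 78 mitochondrial ribosomal protein genes were bound (78.2%, 67.4 to 86.8), 33 of 39 proteasome subunit genes (84.6%, 69.5 to 94.1), 28 of 34 genes of rRNA synthesis and ribosome assembly (82.4%, 65.5 to 93.2) and 18 of 20 cytosolic aminoacyl-tRNA synthetase genes (90%, 68.3 to 98.8). These intervals overlap that of the cytosolic ribosomal protein genes. In the MAC C/EBPβ list the shares were 61.5%, 59%, 52.9% and 95%, in that order, against 58.1%. In HP, PU.1 was at 8.97% (3.68 to 17.6) of the mitochondrial ribosomal protein genes, 12.8% of the proteasome genes, 17.6% of the assembly genes and 10% of the synthetase genes, against 18.6%. For ELK4 in MES the shares were 2.56% of the mitochondrial ribosomal protein genes, 7.69% of the proteasome genes, 10% of the synthetase genes and 0 of the 34 assembly genes, against 8.14%. For RUNX1 in HP they were 5.13%, 7.69%, 5% and 2.94%, against 8.14%, and 3 of 13 genes (23.1%, 5.04 to 53.8) in the TOP mRNA set described next. Of 13 elongation factor and other genes with TOP mRNAs, 12 were bound by PU.1 and 8 by C/EBPβ in MAC, and 3 by PU.1 in HP (23.1%, 5.04 to 53.8, against 10.5% of all coding genes).

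The synthetase genes, which charge the tRNAs that the ribosome uses, had larger shares in the C/EBPβ lists of MES, HP and MAC. Of these, 7 of 20 were bound in MES (35%, 15.4 to 59.2) and 8 of 20 in HP (40%, 19.1 to 63.9), while the ribosomal protein genes were bound at 1.16% (0.0294 to 6.31) and 2.33% (0.283 to 8.15), with intervals that do not overlap in either list. In MAC 19 of 20 were bound (95%, 75.1 to 99.9), against 58.1% (47 to 68.7), again with intervals that do not overlap. In HB 3 of 20 synthetase genes were bound (15%, 3.21 to 37.9), with an interval that overlaps that of the ribosomal protein genes (0 to 4.2), and in HE 0 of either set. The difference was not tested, since each stage was 1 list and the gene sets were compared with results of these data known.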

How the data were processed

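Samples were grouped by factor and stage from their labels, 1 list each. The authors removed adapters with CutAdapt, aligned reads to mm10 (GRCm38) with Bowtie, kept unique reads, removed duplicates with Picard and called peaks with MACS against the input of the same stage, with a threshold chosen by eye, followed by polyPeak. Technical runs were merged for some samples. Tool versions are not given in the sources used here. The deposited values are peak start and end positions, with no count, score or depth.

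Peak centres were compared with 56206 start sites of curated and predicted coding transcripts in the RefSeq GRCm38 annotation (26032 of them curated). Promoter windows were read from that genome. The printed promoters were matched by gene identifier and chromosome in a RefSeq table that held 66 of the 86 genes. Python 3.11.15, NumPy 2.4.6, SciPy 1.17.1, pysam 0.24.0 and Matplotlib 3.10.9 were used, and the counting was tested on simulated data. Genes named with values were the 10 bound in the most lists, those bound in a list with at most 10 of them, those bound in none, the P stalk, Rpl5 and Rpl11, and the paralogues. The other genes of the HP PU.1 list, and those absent from the MAC PU.1 list, were named after their values were seen. Some named results are not reported here. The naming rule uses no measured value, but this gene family, the other gene lists and the sequences were chosen with earlier results of these data known. Alternatives changed the window, the TSS set, the assignment of peaks and the gene set. No test was made.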

Additional observations from a re-analysis of the deposited data

How the results depend on the processing

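Shares were recomputed with windows of 500 bp, 1 kb and 5 kb, with any base of a peak in the window, with the most upstream TSS, with the nearest gene alone, without shared promoters, without paralogues and, chosen after seeing the data, with curated TSS alone. The genes shared by ELK4 and RUNX1 were recounted, after seeing the data, with curated TSS alone and with the nearest gene alone. Of 126 such values 54 were 0, from the 6 lists that bound none of the genes under any setting. Of the other 72, 70 stayed within the main interval for counting error, which is wide where few genes are bound and so also holds values well below the main one, such as 4.48% for ELK4 and 2.99% for GFI1B without shared promoters. The exceptions were MAC C/EBPβ within 500 bp, at 43% (25.3% of all coding genes), and MAC PU.1 without paralogues, at 93.5% (52.4%). Without the long macrophage lists, 30 genes were bound at least once. Curated TSS alone gave 5 genes for ELK4 (5.81%, against 1.85% of all coding genes) and 6 for RUNX1 (6.98%, against 3.09%). No paired analysis was possible because each factor and stage had 1 list. Sequencing depth was not used here.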
